A study of Mus musculus with 12 samples.

Results

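The genes described here are 38 genes of the complement, coagulation and fibrinolysis systems, measured in the mouse heart. They were taken by name from the gene names of the array, which carries probes for 36981 genes in all. All 38 had a probe; C1s is named C1s1 in the files and was matched through a RefSeq synonym. In all, 34 of the 38 passed the filter on dim probes and were tested, out of 19761 tested genes. The remaining 4 were C6, F8, F2rl1 and Tfpi2. F5 and F10 passed the filter only through infarcted hearts, so a difference from uninfarcted hearts was built into their selection. F7 passed only through infarcted wild-type hearts, so its difference from every other group was.

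Total RNA of heart tissue was hybridised to single-colour Agilent expression arrays, with 1 array per sample and 3 arrays in each of 4 groups. TG+MI were hearts of mice that carried the CCRR transgene and had a myocardial infarction, WT+MI were infarcted wild-type hearts, TG were transgenic hearts without infarction, and WT were wild-type hearts without infarction. CCRR is a long non-coding RNA of the heart. C57/BL6 is given as the strain of WT and WT+MI only, so the effect of the transgene cannot be told apart from one of strain. The labels do not state the promoter of the transgene, the number of founder lines, the age of the animals, the part of the heart taken or the time from infarction to sampling. Nor do they say whether each heart sample is from its own animal, and p-values then reflect only how far these 12 samples scatter, which may be technical scatter.

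Complement is a cascade of plasma and cell-surface proteins that tags targets and recruits leukocytes. The classical pathway starts with the recognition molecule C1q and its proteases C1r and C1s, which cleave C4 and C2, while the alternative pathway amplifies C3 cleavage through factor B, factor D and properdin. The released fragments C3a and C5a act on the receptors C3ar1 and C5ar1, and the terminal proteins, C6 and C7 among them, build the membrane attack complex. Coagulation starts when tissue factor (F3) meets factor VIIa, which activates factor X, and thrombin then makes fibrin. Fibrin is dissolved by plasmin, which is made from plasminogen by the activators Plat and Plau, and the receptor Plaur holds Plau at the cell surface. Most circulating complement and clotting factors come from the liver, but C1q, properdin, factor XIII A and many receptors are made by macrophages and other leukocytes, and tissue factor is abundant in heart muscle.

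Levels below are log2 intensities relative to the 75th percentile of the same array, so 0 is the brightness that 75% of probes did not reach. They compare arrays for the same gene and do not rank genes against each other. Differences are limma estimates with their standard error, and a gene is said to have risen or fallen where its Benjamini-Hochberg adjusted p over all 19761 genes was under 0.05. Between 47.0% and 55.2% of probes per array were well above background, and rank correlations between arrays were at least 0.909. All 8 cardiomyocyte markers were above background on every array. WT, WT+MI, TG 1 and TG 2 shared slide 1, while TG 3 and TG+MI shared slide 2. TG+MI and WT+MI therefore shared no slide, and slide and group cannot be told apart in that comparison except through TG 3. With slide fitted as a block, TG 3 sets the slide difference. TG against WT then rests on TG 1 and TG 2, as on slide 1 alone, and TG+MI against TG rests on TG 3 alone.

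In WT+MI against WT, 22 of the 34 tested genes passed the test, 15 higher and 7 lower. Of all tested genes 47.9% passed (18.6% higher and 29.4% lower), and the median difference was 0.13 for the 34 genes and -0.14 for all genes. TG against WT gave 3 higher and 0 lower, beside 2.62% of all genes (1.49% higher, 1.13% lower). Their median was 0.34, beside -0.06 for all genes. In TG+MI against WT+MI, 3 were higher and 9 lower, beside 12.2% of all genes (7.77% higher, 4.39% lower), with medians of -0.14 and 0.09. In TG+MI against TG, 2 were higher and 5 lower, beside 8.83% (5.19% higher, 3.64% lower), with medians of -0.29 and 0.04. The interaction, the infarct difference of transgenic hearts less that of wild-type hearts, passed for 9 genes, 1 above zero and 8 below, beside 8.74% (5.73% above, 3.01% below), with medians of -0.59 and 0.14. These comparisons share groups, so their values are given side by side and not as separate evidence.

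**Figure D1:**
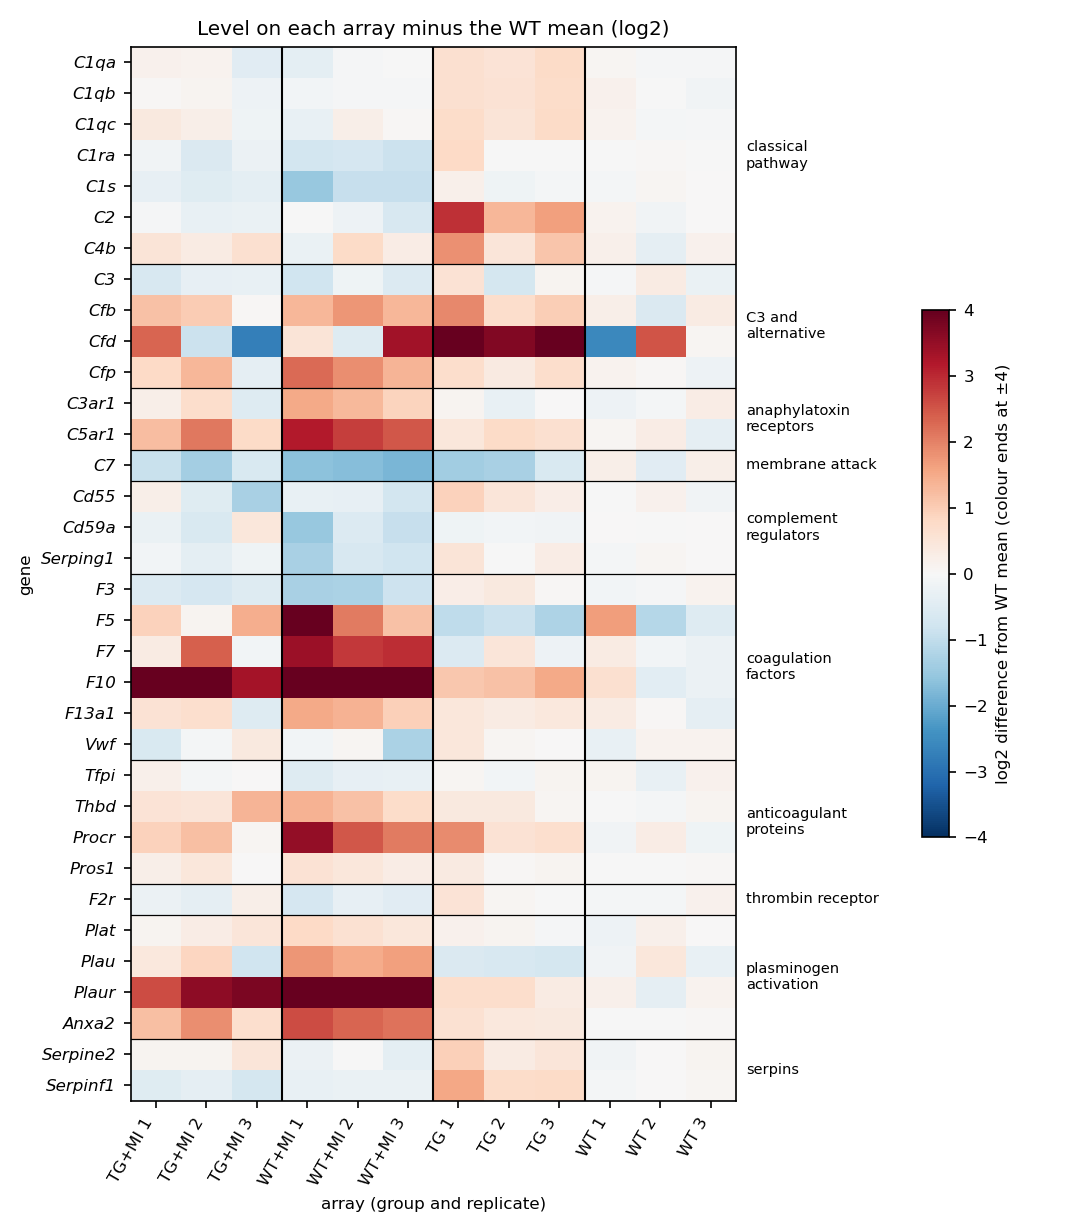
Heat map of the 34 tested genes (rows, grouped by role) on the 12 arrays (columns, TG+MI, WT+MI, TG and WT). Colour is the log2 level minus the WT mean and is held at plus or minus 4 at the ends of the scale; F10 and Plaur are the darkest rows of WT+MI, Cfd is dark in TG and varies within every group, and C2 and Serpinf1 are red in TG.

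Of the 3 genes of the C1q chains, C1qb rose in TG hearts, and the C1 proteases C1ra and C1s fell after infarction in wild-type hearts. C1qb, which encodes the B chain of the recognition molecule, had levels of 1.06, 1.11 and 0.81 in TG+MI, 0.89, 0.96 and 0.97 in WT+MI, 1.63, 1.58 and 1.75 in TG, and 1.16, 0.99 and 0.86 in WT. The 3 TG arrays lay above all others. It was higher by 0.64 ± 0.12 in TG against WT (adjusted p = 0.02) and fell in TG+MI against TG (-0.66 ± 0.12, adjusted p = 0.009). C1qa levels were 1.64, 1.59 and 1.0 in TG+MI, 1.08, 1.40 and 1.44 in WT+MI, 2.11, 2.0 and 2.23 in TG, and 1.55, 1.42 and 1.40 in WT. Again the TG arrays were the 3 highest. C1qa fell in TG+MI against TG (-0.70 ± 0.17, adjusted p = 0.0316), while its difference in TG against WT was 0.66 ± 0.17 (adjusted p = 0.0796), as was that of C1qc (0.66 ± 0.17, adjusted p = 0.0788). Neither C1qa, C1qb nor C1qc differed by more than 0.15 in either direction between WT+MI and WT. Fewer cells of a type and less RNA per cell cannot be told apart in these bulk samples. The 3 genes are neighbours on chromosome 4, and the probes of C1qa (mm9, chr4:136452409-136452468, minus strand) and C1qb (mm9, chr4:136436578-136436637, minus strand) are shown because these chains are related in sequence. They share no run of more than 5 bases.
C1qa: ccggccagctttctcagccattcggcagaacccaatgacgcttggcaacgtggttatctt
C1qb: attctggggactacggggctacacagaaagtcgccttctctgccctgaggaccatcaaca

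The 16 monocyte and macrophage markers averaged 1.60, 1.80 and 0.67 in TG+MI, 2.24, 2.23 and 1.85 in WT+MI, 1.75, 1.54 and 1.64 in TG, and 1.41, 1.32 and 1.09 in WT, with 15 or 16 of 16 above background on each array. Their mean was higher on each TG array than on each WT array, as C1q was, yet it was highest in WT+MI, where C1q was not. Of the 16 markers, limma called 1 higher in TG against WT, and 6 higher and 1 lower in WT+MI against WT. In TG+MI against WT+MI it called 4 lower. The part of these cells in the C1q difference was not tested. With slide as a block, which leaves TG 1 and TG 2 against WT, C1qb was higher by 0.60 (adjusted p = 0.0593). On slide 1 alone, which holds the same arrays of these groups, the adjusted p was 0.0535, so that call was lost.

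C2, the protease that C1s cleaves to build the C3 convertase, stood out in TG hearts. Its levels were -2.18, -2.43 and -2.37 in TG+MI, -2.14, -2.32 and -2.77 in WT+MI, 0.79, -0.80 and -0.49 in TG, and -1.98, -2.27 and -2.11 in WT. All TG arrays were above all 9 other arrays, which lay within 1 log2 unit of each other. C2 rose in TG against WT by 1.95 ± 0.34 (adjusted p = 0.0163), fell in TG+MI against TG (-2.16 ± 0.34, adjusted p = 0.0051), and differed by -0.29 ± 0.34 in WT+MI against WT (adjusted p = 0.501). Its interaction was -1.87 ± 0.48 (adjusted p = 0.0439). With normexp background correction the TG difference was 0.98 and that of TG+MI from TG -1.18, which still passed, while the interaction of -1.04 did not (adjusted p = 0.0705). With TG 3 taken out, by slide as a block or by slide 1 alone, the TG difference was 2.11. It passed with the block (adjusted p = 0.0306) and missed the threshold on slide 1 alone (adjusted p = 0.0565). C4b, its partner in the convertase, differed by 1.15 ± 0.34 in TG against WT (adjusted p = 0.116).

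C1s, the protease that cleaves C4 and C2, had levels of 1.83, 1.67 and 1.76 in TG+MI, 0.63, 1.25 and 1.24 in WT+MI, 2.37, 2.0 and 2.08 in TG, and 2.07, 2.24 and 2.17 in WT. The WT+MI arrays were the 3 lowest and TG+MI lay between them and the uninfarcted hearts. It fell in WT+MI against WT (-1.12 ± 0.17, adjusted p = 0.000676) and was higher in TG+MI than in WT+MI (0.71 ± 0.17, adjusted p = 0.033). C1ra, which activates C1s, had levels of 1.36, 0.95 and 1.28 in TG+MI, 0.79, 0.84 and 0.64 in WT+MI, 2.30, 1.49 and 1.51 in TG, and 1.5, 1.55 and 1.49 in WT. It fell in WT+MI against WT (-0.76 ± 0.20, adjusted p = 0.0105), and TG+MI differed from WT+MI by 0.44 ± 0.20 (adjusted p = 0.149). Resident fibroblast markers, 10 in all, averaged 1.76, 1.63 and 1.44 in TG+MI, 1.37, 1.59 and 1.63 in WT+MI, 2.62, 2.26 and 2.22 in TG, and 1.76, 2.12 and 1.83 in WT. They were lower on every WT+MI array than on any WT array, with 4 of the 10 called lower and 1 higher there (limma). Their part in the C1s and C1ra differences was not tested.

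Of the genes of C3 and the alternative pathway, factor B and properdin rose after infarction in wild-type hearts, while C3 and factor D passed no comparison. Cfb, the catalytic subunit of the alternative C3 convertase, had levels of -0.61, -0.76 and -1.72 in TG+MI, -0.46, -0.01 and -0.45 in WT+MI, 0.13, -1.07 and -0.78 in TG, and -1.53, -2.35 and -1.45 in WT. WT was the low group, with TG+MI 3 within its range, and the other 3 groups overlapped. Cfb rose in WT+MI against WT (1.47 ± 0.38, adjusted p = 0.009). TG differed from WT by 1.20 ± 0.38 (adjusted p = 0.13) and TG+MI from TG by -0.46 ± 0.38 (adjusted p = 0.482), and the interaction was -1.93 ± 0.53 (adjusted p = 0.0492). With normexp the infarct difference was 0.86 and the interaction -1.16, and each still passed. The interaction, however, passed in only 3 of the 20 other settings that gave a value (adjusted p up to 0.267). Cfp, which encodes properdin, the stabiliser of that convertase, had levels of 2.24, 2.75 and 1.07 in TG+MI, 3.68, 3.28 and 2.80 in WT+MI, 2.12, 1.78 and 2.13 in TG, and 1.57, 1.48 and 1.24 in WT. WT+MI was the highest group, although its lowest array was close to the highest TG+MI array. Cfp rose in WT+MI against WT (1.82 ± 0.36, adjusted p = 0.00262) and differed by -1.24 ± 0.36 in TG+MI against WT+MI (adjusted p = 0.051). C3, the central component, differed by between -0.50 and 0.08 in the 4 comparisons of groups and had levels between 5.25 and 6.63.

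Cfd, factor D or adipsin, is made mainly by fat cells and was the most variable of the 34 genes, with an SD of 2.01 to 2.56 within groups. Its levels were 0.96, -2.23 and -4.10 in TG+MI, -0.85, -1.89 and 1.98 in WT+MI, 6.44, 2.34 and 2.69 in TG, and -3.96, 1.14 and -1.29 in WT. TG arrays were highest, and TG 1 stood far above TG 2 and TG 3. With this spread the TG difference of 5.20 ± 1.68 did not pass (adjusted p = 0.141). Adipocyte markers, 9 in all, averaged 0.76, -0.66 and -0.72 in TG+MI, -0.19, -0.50 and 0.51 in WT+MI, 3.89, 1.40 and 1.65 in TG, and -0.71, 1.13 and -0.14 in WT. Array by array the list ran with Cfd, with TG 1 at the top of each. The number of these markers above background ranged from 4, on TG+MI 3, WT+MI 2 and WT 1, to 9 on TG 1. The same TG arrays were also high in the 6 atrial markers, at 0.67, 2.58 and -1.34 in TG+MI, 4.03, -1.20 and -1.17 in WT+MI, 5.18, 4.01 and 4.80 in TG, and -0.25, -0.15 and -1.66 in WT. The part of fat or atrial tissue in Cfd, C2, Serpinf1 and C1q was not tested. On WT+MI 1, the wild-type array with high atrial markers, C2 was at -2.14, Serpinf1 at 2.89 and C1qb at 0.89, each below every TG array. That array was also infarcted and had adipocyte markers at -0.19, so it cannot decide the part of either tissue.

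**Figure D2:**
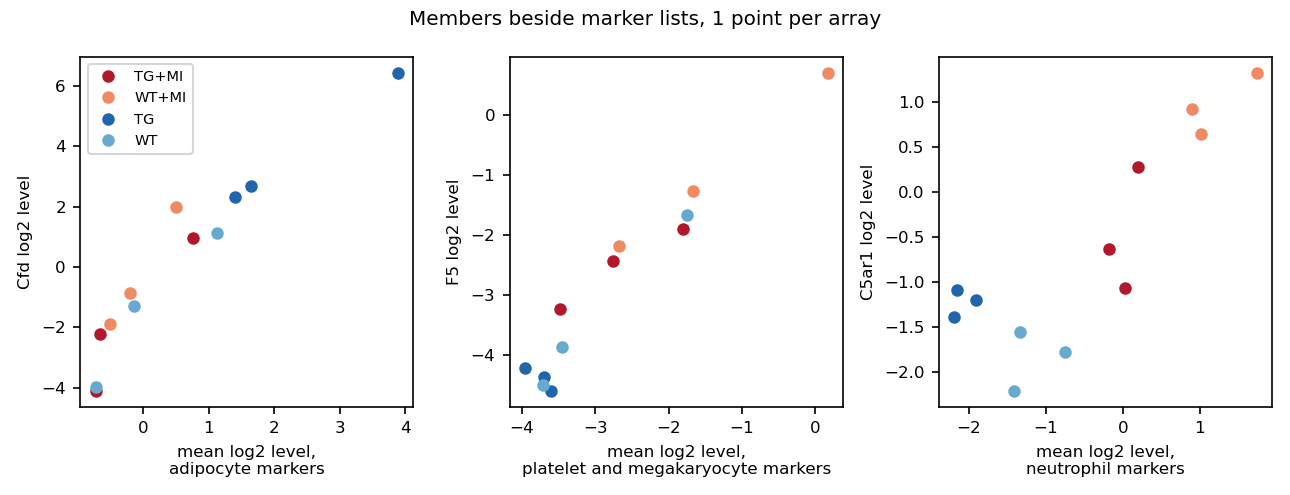
Level of Cfd, F5 and C5ar1 (vertical, log2 relative to the 75th percentile) against the mean log2 level of adipocyte, platelet and megakaryocyte, and neutrophil markers (horizontal), 1 point per array coloured by group. Cfd reaches 6.44 on TG 1, where adipocyte markers average 3.89, F5 reaches 0.70 on WT+MI 1, where platelet markers average 0.17, and C5ar1 is highest on the 3 WT+MI arrays, which also have the highest neutrophil averages.

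Both anaphylatoxin receptors rose in infarcted wild-type hearts and were lower in TG+MI than in WT+MI, beside 18.6% and 4.39% of all tested genes. C5ar1, the main C5a receptor of neutrophils and macrophages, had levels of -0.63, 0.27 and -1.07 in TG+MI, 1.32, 0.92 and 0.64 in WT+MI, -1.39, -1.09 and -1.20 in TG, and -1.78, -1.56 and -2.21 in WT. No TG+MI array reached the lowest WT+MI array, and every TG+MI array was above every uninfarcted array. C5ar1 rose in WT+MI against WT by 2.81 ± 0.31 (adjusted p = 0.000179), was lower in TG+MI against WT+MI (-1.44 ± 0.31, adjusted p = 0.0288), and differed by 0.75 ± 0.31 in TG+MI against TG (adjusted p = 0.159). The interaction was -2.06 ± 0.44 (adjusted p = 0.0359). C3ar1, the C3a receptor, had levels of -1.79, -1.30 and -2.53 in TG+MI, -0.49, -0.70 and -1.11 in WT+MI, -1.91, -2.31 and -2.0 in TG, and -2.21, -2.10 and -1.72 in WT. WT+MI stood alone at the top. C3ar1 rose in WT+MI against WT by 1.24 ± 0.29 (adjusted p = 0.00534) and was lower in TG+MI against WT+MI (-1.10 ± 0.29, adjusted p = 0.0383). With normexp these were 0.59 and -0.59, and for C5ar1 the infarct difference was 1.77 and the interaction -1.24, all of which still passed. Neutrophil markers, 12 in all with 7 to 11 above background per array, averaged -0.18, 0.20 and 0.03 in TG+MI, 1.74, 0.90 and 1.02 in WT+MI, -2.19, -2.16 and -1.91 in TG, and -0.75, -1.33 and -1.42 in WT. They had the group order of C5ar1 except that TG lay below WT. Of the 11 markers tested, limma called 6 higher and 2 lower in WT+MI against WT, and 4 lower in TG+MI against WT+MI. Their part in these differences was not tested.

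C7 and 2 of the 3 complement regulators were lower after infarction in wild-type hearts, as were 29.4% of all tested genes. C7, a component of the membrane attack complex, had levels of -0.56, -1.03 and -0.29 in TG+MI, -1.33, -1.40 and -1.51 in WT+MI, -1.07, -0.97 and -0.29 in TG, and 0.55, -0.15 and 0.55 in WT. WT was highest, WT+MI lowest, and the transgenic groups overlapped each other in between. It fell in WT+MI against WT (-1.73 ± 0.26, adjusted p = 0.000676), differed by -1.10 ± 0.26 in TG against WT (adjusted p = 0.0568) and by 0.15 ± 0.26 in TG+MI against TG (adjusted p = 0.756), and its interaction was 1.88 ± 0.37 (adjusted p = 0.0295). With normexp they were -1.12 for infarction in wild-type hearts and 1.22 for the interaction, and each still passed. With TG 3 taken out, by slide as a block or by slide 1 alone, the TG difference became -1.34 and passed (adjusted p = 0.0379 and 0.0353). C6, the other terminal component listed, was above background on no array.

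Serping1, the C1 inhibitor that blocks C1r and C1s, had levels of 4.79, 4.49 and 4.71 in TG+MI, 3.60, 4.26 and 4.11 in WT+MI, 5.41, 4.89 and 5.20 in TG, and 4.80, 4.96 and 4.92 in WT. The WT+MI arrays were the 3 lowest. It fell in WT+MI against WT (-0.90 ± 0.18, adjusted p = 0.00281) and was higher in TG+MI than in WT+MI (0.67 ± 0.18, adjusted p = 0.0424). Cd59a, which keeps the membrane attack complex from assembling on host cells, had levels of 3.75, 3.41 and 4.45 in TG+MI, 2.48, 3.46 and 3.08 in WT+MI, 3.84, 3.91 and 3.87 in TG, and 4.03, 3.99 and 4.01 in WT. It fell in WT+MI against WT (-1.0 ± 0.27, adjusted p = 0.0113), and TG+MI, which overlapped WT+MI, differed from it by 0.86 ± 0.27 (adjusted p = 0.0589). Cd55, which speeds the decay of C3 convertases, passed no comparison and had levels between -0.96 and 1.27. Cross-hybridisation between close copies (C4b and C4a, Cd55 and Cd55b, Cd59a and Cd59b, C1ra and C1rb, C1s and its copy C1s2) was not tested.

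**Figure D3:**
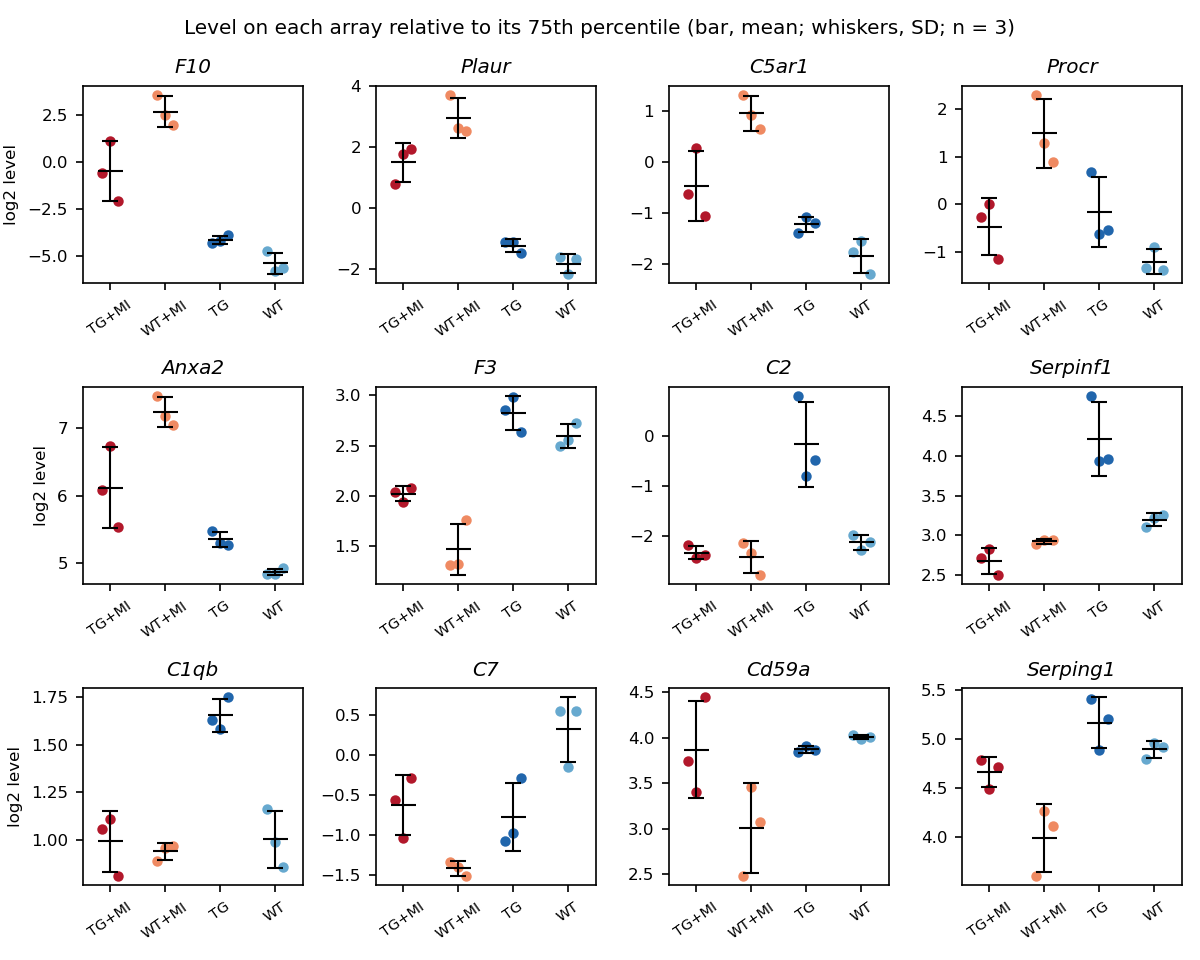
Log2 level of 12 genes on each array (points) with the mean (bar) and SD (whiskers, n = 3) of TG+MI, WT+MI, TG and WT, each panel with its own vertical scale. F10, Plaur, C5ar1, Procr and Anxa2 are highest in WT+MI and lower in TG+MI, C2, Serpinf1 and C1qb are highest in TG, and F3, C7, Cd59a and Serping1 are lowest in WT+MI.

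Among coagulation factors, F10 had the largest infarct difference of the 34 genes in wild-type hearts, and F3 fell. F10 encodes factor X, which as factor Xa makes thrombin. Its levels were -0.61, 1.12 and -2.07 in TG+MI, 3.54, 2.49 and 1.92 in WT+MI, -4.32, -4.23 and -3.90 in TG, and -4.76, -5.83 and -5.64 in WT. It was well above background on all 6 infarcted arrays and on none of the 6 uninfarcted arrays. F10 was at least 87.3-fold higher in WT+MI than in WT and at least 8.25-fold higher in TG+MI than in TG. Such a bound sets the measured mean against the dimmest signal well above background on each array. The fitted differences were 8.06 (adjusted p = 5.7e-05) and 3.63 (adjusted p = 0.0111), against uninfarcted signals below background. F10 entered the test only through infarcted hearts, so these p-values follow in part from its selection. In TG+MI it was lower than in WT+MI by 3.17 on the log2 scale (-3.17 ± 0.68, adjusted p = 0.0288), and the interaction was -4.43 ± 0.96 (adjusted p = 0.0359). The probe that gives these values, shown because F10 rests on it alone, lies at mm9 chr8:13055774-13055833 on the plus strand.
F10: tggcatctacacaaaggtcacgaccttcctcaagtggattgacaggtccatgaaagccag

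F7, the gene of factor VII, lies beside F10 on chromosome 8. Its levels were -5.25, -3.20 and -5.71 in TG+MI, -2.15, -2.75 and -2.64 in WT+MI, -6.13, -5.11 and -5.79 in TG, and -5.25, -5.69 and -5.82 in WT. It was above background on all 3 WT+MI arrays, on 1 of 3 TG+MI arrays and on no uninfarcted array. F7 was at least 2.44-fold higher in WT+MI than in WT, with a fitted difference of 3.07 (adjusted p = 0.00135). It differed by -2.21 ± 0.54 in TG+MI against WT+MI (adjusted p = 0.0345), a fitted value that rests on 2 TG+MI arrays below background. Each of these values also rests on the selection of F7 through WT+MI. Hepatocyte markers, the usual company of factors VII and X, averaged -2.62, -3.19 and -2.41 in TG+MI, -0.48, -0.62 and -3.03 in WT+MI, -1.51, -2.18 and -1.93 in TG, and -3.29, -2.72 and -3.0 in WT. On WT+MI 3 these 8 markers averaged within the range of WT hearts, and F10 and F7 were at 1.92 and -2.64. That array alone cannot decide the part of hepatocyte RNA in the F10 and F7 differences, which was not tested. The neutrophil and the monocyte and macrophage averages given above were likewise higher on every WT+MI array than on any TG+MI or WT array. Their part in F10 and F7 was not tested either. Fold sizes of dim genes depend on the background correction: with normexp and an offset of 50, the infarct difference of wild-type hearts was 4.01 for F10 and 0.54 for F7, the difference of F7 in TG+MI against WT+MI was -0.56, and F10 had 1.62 in TG+MI against TG and an interaction of -2.39. Each of these still passed.

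F3, tissue factor, moved the other way. Its levels were 2.04, 1.94 and 2.08 in TG+MI, 1.31, 1.32 and 1.76 in WT+MI, 2.85, 2.98 and 2.64 in TG, and 2.5, 2.56 and 2.73 in WT. The infarcted arrays lay below all uninfarcted arrays, and WT+MI lay below TG+MI. F3 fell in WT+MI against WT (-1.13 ± 0.14, adjusted p = 0.000324) and in TG+MI against TG (-0.81 ± 0.14, adjusted p = 0.00961), and was higher in TG+MI than in WT+MI (0.55 ± 0.14, adjusted p = 0.0387). The interaction was 0.33 ± 0.20 (adjusted p = 0.287). The 8 cardiomyocyte markers averaged 7.67, 7.53 and 7.99 in TG+MI, 7.41, 7.89 and 7.51 in WT+MI, 7.58, 7.90 and 7.85 in TG, and 8.05, 8.30 and 7.98 in WT. They were lower on every WT+MI array than on any WT array, with 3 of the 8 called lower there and 0 in TG+MI against TG (limma), and their part in the F3 differences was not tested.

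F13a1, the transglutaminase subunit that cross-links fibrin and is also found in macrophages, had levels of 3.40, 3.51 and 2.33 in TG+MI, 4.34, 4.22 and 3.80 in WT+MI, 3.29, 3.18 and 3.26 in TG, and 3.15, 2.88 and 2.48 in WT. WT+MI was above every other array. It rose in WT+MI against WT (1.28 ± 0.29, adjusted p = 0.00495) and was lower in TG+MI than in WT+MI (-1.04 ± 0.29, adjusted p = 0.0455). TG+MI 3, its lowest TG+MI array, also had the lowest average of the monocyte and macrophage markers, at 0.67. Without that array the difference from WT+MI was -0.67 (adjusted p = 0.0911). The call was also lost when any other single array except WT+MI 3 or TG+MI 2 was left out (adjusted p = 0.0553 to 0.146).

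F5, the cofactor of factor Xa, is carried by platelets as well as plasma. Its levels were -2.43, -3.23 and -1.89 in TG+MI, 0.70, -1.26 and -2.18 in WT+MI, -4.36, -4.21 and -4.59 in TG, and -1.67, -4.49 and -3.86 in WT, with 1 of 3 WT arrays and no TG array above background. WT 1 lay within the WT+MI range. F5 rose in WT+MI against WT (2.42 ± 0.79, adjusted p = 0.0269), but on slide 1 alone the adjusted p was 0.0567, and the call was also lost with WT 2, WT 3 or WT+MI 1 left out and with normexp background correction, where the difference was 0.83. Platelet and megakaryocyte markers, 8 in all, averaged -2.76, -3.48 and -1.80 in TG+MI, 0.17, -1.66 and -2.67 in WT+MI, -3.70, -3.96 and -3.61 in TG, and -1.75, -3.72 and -3.45 in WT. Within each of WT and WT+MI the list was highest on the array where F5 was highest, and its part in the F5 difference was not tested. Vwf, which tethers platelets, passed no comparison, and its levels lay between 3.02 and 4.74. F8, its plasma partner, was above background on 2 of 3 arrays in TG+MI, 0 in WT+MI, 2 in TG and 1 in WT.

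Of the 4 anticoagulant protein genes tested, Procr, Thbd and Pros1 rose after infarction in wild-type hearts, beside 18.6% of all tested genes. Procr, the endothelial protein C receptor, had levels of -0.27, 0.01 and -1.14 in TG+MI, 2.30, 1.28 and 0.89 in WT+MI, 0.69, -0.63 and -0.53 in TG, and -1.34, -0.90 and -1.37 in WT. All WT+MI arrays were above all others, and TG+MI overlapped TG. Procr rose in WT+MI against WT by 2.69 ± 0.44 (adjusted p = 0.000977), was lower in TG+MI than in WT+MI (-1.95 ± 0.44, adjusted p = 0.03), and differed by -0.31 ± 0.44 in TG+MI against TG (adjusted p = 0.706). Its interaction of -3.0 ± 0.62 (adjusted p = 0.0344) was the second largest in size of the 9 that passed. Thbd, thrombomodulin, which turns thrombin into an activator of protein C, had levels of 3.68, 3.61 and 4.5 in TG+MI, 4.52, 4.30 and 3.87 in WT+MI, 3.52, 3.52 and 3.21 in TG, and 3.12, 3.04 and 3.23 in WT. The infarcted groups overlapped. It rose in WT+MI against WT (1.10 ± 0.24, adjusted p = 0.00373), and TG+MI differed from TG by 0.51 ± 0.24 (adjusted p = 0.2).

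Pros1, protein S, the cofactor of activated protein C, had levels of 3.11, 3.31 and 2.89 in TG+MI, 3.44, 3.32 and 3.18 in WT+MI, 3.23, 2.91 and 2.97 in TG, and 2.84, 2.86 and 2.91 in WT. It rose in WT+MI against WT by 0.44 ± 0.13 (adjusted p = 0.0184), a call lost with WT 1, WT 2 or WT+MI 1 left out, and by 0.73 as the mean over its probes. Tfpi, the inhibitor of tissue factor with factor VIIa, had levels of 3.40, 3.13 and 3.21 in TG+MI, 2.70, 2.89 and 2.90 in WT+MI, 3.28, 3.08 and 3.32 in TG, and 3.31, 2.91 and 3.39 in WT. WT 2 was level with the highest WT+MI arrays. Its difference of -0.38 ± 0.14 in WT+MI against WT was at the threshold (adjusted p = 0.0499) and passed in 2 of the 22 other settings that gave a value. Its 4 probes that passed the filter differed by between -0.66 and 0.07, so they do not give a single direction. Tfpi2 was above background on 1 TG+MI array and 1 WT+MI array. F2r, the main thrombin receptor, passed no comparison, with -0.49 ± 0.19 in WT+MI against WT (adjusted p = 0.0547), and F2rl1, another protease-activated receptor, was above background on no array.

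All 4 genes of plasminogen activation rose in infarcted wild-type hearts, and 3 of them were lower in TG+MI than in WT+MI. Over all tested genes 18.6% rose and 4.39% were lower in these comparisons. Plaur, the urokinase receptor, had levels of 0.78, 1.77 and 1.96 in TG+MI, 3.72, 2.63 and 2.54 in WT+MI, -1.12, -1.12 and -1.49 in TG, and -1.62, -2.17 and -1.67 in WT. The 4 groups separated into WT+MI, then TG+MI, then the uninfarcted hearts. Plaur rose by 4.79 ± 0.36 in WT+MI against WT (adjusted p = 3.27e-05) and by 2.75 ± 0.36 in TG+MI against TG (adjusted p = 0.00227). It was lower in TG+MI than in WT+MI (-1.46 ± 0.36, adjusted p = 0.0347), and the interaction was -2.04 ± 0.51 (adjusted p = 0.0415). With the slide block the difference of TG+MI from TG was 2.99 (adjusted p = 0.045), the only one of the 7 to pass there.

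Plau, urokinase, had levels of -0.85, -0.39 and -2.05 in TG+MI, 0.51, 0.23 and 0.37 in WT+MI, -1.83, -1.90 and -1.97 in TG, and -1.41, -0.82 and -1.56 in WT. WT+MI was above every other array. It rose in WT+MI against WT (1.63 ± 0.35, adjusted p = 0.00379) and was lower in TG+MI than in WT+MI (-1.46 ± 0.35, adjusted p = 0.0332). Plat, the tissue-type activator, had levels of -0.15, 0.03 and 0.20 in TG+MI, 0.52, 0.35 and 0.18 in WT+MI, -0.09, -0.17 and -0.33 in TG, and -0.47, -0.08 and -0.26 in WT. It rose less, by 0.62 ± 0.14 in WT+MI against WT (adjusted p = 0.00548), and TG+MI, which overlapped WT+MI, differed from it by -0.32 ± 0.14 (adjusted p = 0.142). Anxa2, whose protein forms a cell-surface receptor for plasminogen and Plat, had levels of 6.08, 6.74 and 5.54 in TG+MI, 7.48, 7.18 and 7.05 in WT+MI, 5.48, 5.30 and 5.27 in TG, and 4.84, 4.84 and 4.92 in WT. The order WT+MI, TG+MI, TG, WT held without overlap. Anxa2 rose in WT+MI against WT by 2.37 ± 0.24 (adjusted p = 0.000125), was lower in TG+MI than in WT+MI (-1.12 ± 0.24, adjusted p = 0.0288), differed by 0.77 ± 0.24 in TG+MI against TG (adjusted p = 0.0773), and had an interaction of -1.60 ± 0.34 (adjusted p = 0.0359). With normexp the infarct difference of Plau in wild-type hearts was 1.06 and still passed. The neutrophil and the monocyte and macrophage averages given above were also higher on every WT+MI array than on any TG+MI or WT array, and their part in the Plaur, Plau, Plat and Anxa2 differences was not tested.

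Of the serpins, Serpinf1, pigment epithelium-derived factor, was high in TG hearts. Its levels were 2.71, 2.83 and 2.5 in TG+MI, 2.89, 2.94 and 2.94 in WT+MI, 4.75, 3.93 and 3.96 in TG, and 3.11, 3.22 and 3.26 in WT. TG stood above all others, with TG 1 highest as for C2 and Cfd, and TG+MI was the lowest group. The resident fibroblast average given above was likewise higher on each TG array than on any other, with TG 1 highest and 1 of its 10 markers called higher in TG against WT, and its part in Serpinf1 and C2 was not tested. Serpinf1 rose in TG against WT (1.01 ± 0.19, adjusted p = 0.0248), fell in TG+MI against TG (-1.53 ± 0.19, adjusted p = 0.0019), and had an interaction of -1.26 ± 0.27 (adjusted p = 0.0359). With TG 3 taken out, by slide as a block or by slide 1 alone, the TG difference was 1.14 (adjusted p = 0.0316 and 0.0484). Serpine2, protease nexin-1, passed no comparison, with 0.58 ± 0.17 in TG against WT (adjusted p = 0.118), and its 2 probes differed in sign there (0.58 and -0.16).

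How the infarct difference of each gene compared between genotypes is shown by the plot of infarct differences. For the 9 genes whose interaction passed, the infarct difference of TG hearts and that of WT hearts were 3.63 and 8.06 for F10, -0.31 and 2.69 for Procr, 0.75 and 2.81 for C5ar1, 2.75 and 4.79 for Plaur, -0.46 and 1.47 for Cfb, -2.16 and -0.29 for C2, 0.77 and 2.37 for Anxa2, -1.53 and -0.27 for Serpinf1, and 0.15 and -1.73 for C7. The F10 values are fitted against signals below background in uninfarcted hearts. For C2 and Serpinf1 the interaction came with a higher level in TG than in WT, and TG+MI did not pass against WT+MI (0.09 ± 0.34 with adjusted p = 0.882 for C2, and -0.24 ± 0.19 with adjusted p = 0.402 for Serpinf1). For F10, Procr, C5ar1, Plaur and Anxa2, TG+MI was lower than WT+MI.

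**Figure D4:**
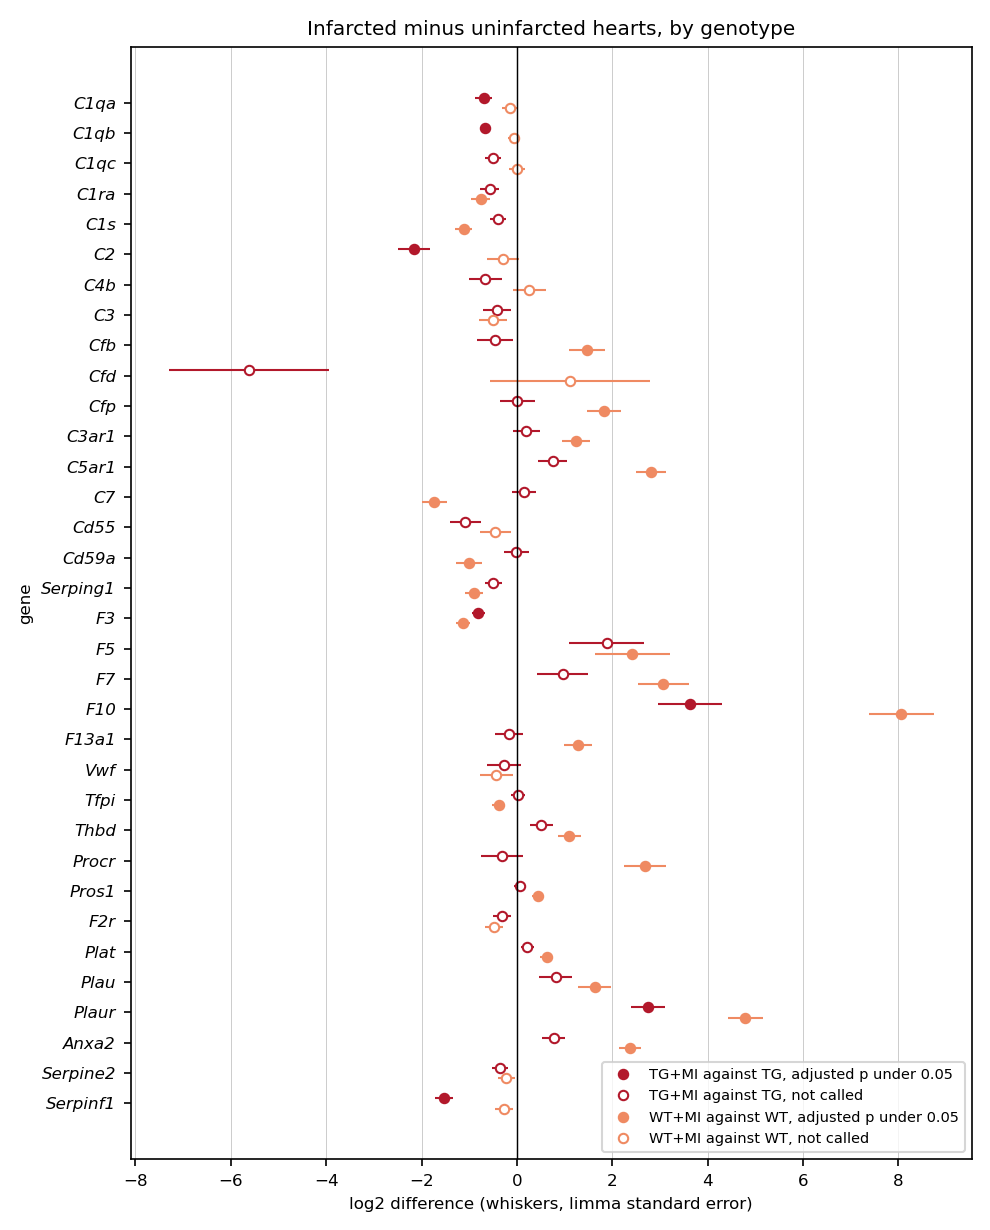
Infarct difference (log2, horizontal) with its limma standard error for the 34 tested genes in transgenic hearts (TG+MI against TG, dark red) and wild-type hearts (WT+MI against WT, orange); filled points passed an adjusted p of 0.05. Wild-type hearts have 22 filled points and transgenic hearts 7, where 47.9% and 8.83% of all tested genes passed. F10 lies farthest right in each, at 8.06 and 3.63.

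These genotype comparisons rest on few arrays and on the slides. With slide as a block limma called 0 of the 34 in TG+MI against WT+MI (5 with an unadjusted p under 0.05) and 0 in the interaction (13 with an unadjusted p under 0.05). The adjusted p of the 12 genes ran there from 0.648 to 0.705, and their differences kept their sign, between -3.54 for F10 and 0.83 for F3. TG+MI against TG fell to 1 call with the block, and on slide 2 alone, with TG 3 as the only TG array, limma called 0 (8 with an unadjusted p under 0.05). Leaving out WT+MI 1, TG+MI 1 or TG+MI 3 left 0 of the 12 in TG+MI against WT+MI (16, 17 and 18 with an unadjusted p under 0.05). Over all genes these runs left 45, 0 and 4 calls, beside 2403 with every array. Leaving out WT 1, WT 2, WT 3 or WT+MI 2 left 4, 5, 5 and 3 of the 12. Over all genes 1029, 875, 942 and 960 were then called. Scaling to the 75th percentile of probes above background on all arrays changed the split over all genes in that comparison to 800 higher and 1121 lower, beside 1535 higher and 868 lower, and that of the 34 genes to 1 higher and 10 lower. The interaction split over all genes was 610 above and 583 below zero under that scaling, beside 1133 and 595. In TG against WT, 0 were called without WT 2 (11 with an unadjusted p under 0.05) or WT 3 (10), 1 without WT 1, and 6 without TG+MI 3. Over all genes these runs called 137, 162, 158 and 864, beside 518 with every array. In the interaction, 0 were called without WT 1, WT 3, TG 2 or TG+MI 1 (16, 17, 20 and 20 with an unadjusted p under 0.05), 1 without WT 2, WT+MI 1 or TG 1, and 2 without WT+MI 2. Over all genes the counts were 193, 55, 203 and 81, then 60, 386 and 135, and then 673, beside 1728 with every array. WT+MI and WT shared slide 1, so the block and slide 1 alone leave their differences unchanged and alter only the spread. With the block 21 of the 34 were called, and 21 on slide 1 alone.

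For all the genes with a promoter given, the 250 bases upstream of the transcription start (RefSeq, GRCm38.p6) were searched on each strand for motifs. A promoter was given for 28 of the 38 genes, 33 promoters in all. The AP-1 letters TGAGTCA or TGACTCA, which are reverse complements of each other, stood in 6 of the 33 (18.2%), against 4.46% of 32851 promoters of all genes, given as a description without a test. The 6 were those of Anxa2, C3ar1, F2r, F3, Plaur and Procr. In WT+MI against WT, 4 of these genes rose, F3 fell and F2r did not pass. Of the 22 genes without the letters 7 rose, 5 fell, 7 did not pass and 3 were not tested. Over all tested genes 18.6% rose and 29.4% fell. A link between the letters and the calls was not tested. The cyclic AMP response element TGACGTCA was in 0 of the 33 (1.55% of all), the NF-kappaB letters (GGGA, any 2 bases, TTCC) in 0 (1.21%), and the core of the interferon-stimulated response element (GAAA, any 2 bases, GAAA) in 1, that of Cd59a (3.03%, against 2.98%). A match describes the letters only and not binding. The stretches around the AP-1 letters are shown 5′ to 3′ on the strand of each gene with those letters in capitals, for the 4 genes that rose and for F3, which fell. They lie at chr7:24462384-24462450 (plus strand) for Plaur, chr2:155751033-155751099 (plus) for Procr, chr9:69453558-69453624 (plus) for Anxa2, chr6:122856158-122856209 (minus) for C3ar1 and chr3:121723372-121723438 (plus) for F3.
Plaur: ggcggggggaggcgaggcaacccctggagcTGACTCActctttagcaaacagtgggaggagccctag
Procr: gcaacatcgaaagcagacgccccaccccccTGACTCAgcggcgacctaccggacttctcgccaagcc
Anxa2: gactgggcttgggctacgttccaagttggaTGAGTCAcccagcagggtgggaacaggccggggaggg
C3ar1: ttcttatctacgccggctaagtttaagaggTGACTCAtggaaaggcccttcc
F3: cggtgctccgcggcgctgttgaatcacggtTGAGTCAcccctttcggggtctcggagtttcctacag

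Of 78 other genes of the same systems, 44 were tested. In WT+MI against WT, 14 of them rose and 8 fell, TG against WT gave 3 and 0, TG+MI against WT+MI 5 higher and 8 lower, TG+MI against TG 1 and 3, and the interaction 4 above and 6 below zero. Over all tested genes 47.9%, 2.62%, 12.2%, 8.83% and 8.74% passed in these comparisons. Chosen after their values were seen, the 3 genes higher in TG against WT are named here as Masp1, S100a10 and Lrp1, the 5 higher in TG+MI against WT+MI as C8g, Colec11, Cd46, Vtn and Ggcx, the 8 lower there as Cd93, Itgb2, C5ar2, Kng1, Serpind1, Serpinb2, S100a10 and Bdkrb2, those of TG+MI against TG as Bdkrb1 (higher) and Susd4, Ggcx and Lrp1 (lower), and the 4 with an interaction above zero as C8g, Cr2, Cd46 and Bdkrb1, and the 6 below zero as Masp1, Kng1, Serpinb2, S100a10, Bdkrb2 and Lrp1. Serpinb2 and Kng1 passed the filter only through WT+MI, Cd46 only through TG+MI and Bdkrb2 only through infarcted hearts. Their being higher there was built into their selection. Susd4 passed only through uninfarcted hearts, so its being lower in infarcted hearts was likewise built in. Serpinb2, a serpin that inhibits Plau, was above background on the 3 WT+MI arrays only. It was at least 3.6-fold higher there than in WT, with a fitted difference of 4.03 (adjusted p = 0.000426). Kng1, the kininogen gene, was at least 3.36-fold higher in WT+MI than in WT, with a fitted difference of 3.87 (adjusted p = 0.00674). Of the 3 integrin genes of complement receptors, Itgax rose in WT+MI against WT by 3.46 ± 0.72 (adjusted p = 0.00338) and Itgb2 by 2.53 ± 0.34 (adjusted p = 0.00041), while Itgam differed by 0.05 ± 0.15 (adjusted p = 0.807). F2rl2, a thrombin receptor gene, differed by 2.54 ± 0.70 (adjusted p = 0.0128), a fitted value with 2 of 3 WT+MI arrays and 1 of 3 WT arrays above background. It passed the filter only through TG+MI. The fibrinogen genes were not tested: Fgb and Fgg were above background on WT+MI 1 and WT+MI 2 only, the arrays with the highest hepatocyte averages, and Fga on none.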

How the data were processed

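Spot intensity of the 12 arrays was measured and background-subtracted with the Feature Extraction software of Agilent (per the file headers) and deposited as linear processed signal without scaling between arrays. The authors also deposited a table of log2 values of the same arrays, whose column medians lie between 4.213 and 4.224; the steps behind it are not stated. From the signal, log2 was taken, less the 75th percentile of non-control probes on that array. A gene was its probe of highest mean over the 12 arrays, and was tested if that probe passed the software's background test on the 3 arrays of at least 1 group. Names were updated through a RefSeq gene table, and probe coordinates are those of the files (mm9). All arrays entered 1 group-means model in limma 3.58.1 (lmFit, eBayes, R 4.3.3), with Benjamini-Hochberg adjustment over 19761 genes and a threshold of 0.05. The fit was tested on simulated data.

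The genes and lists were chosen with earlier results of these data known. Values on every array are given for those of the 38 genes called in at least 1 comparison and for Cfd. The others are given by range, by differences or by the arrays above background. Of other pathway genes, the fibrinogen genes and the 5 with the largest called difference in WT+MI against WT are named, and 1 gene is not reported here. In all, 23 alternatives were run: 4 other scalings or background corrections (the authors' table among them), no filter, the mean over probes, slide and replicate blocks, only the compared groups, single slides and each array left out. The number of arrays and their signal over background limit the precision.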

Additional observations from a re-analysis of the deposited data

Results flagged for a closer look

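The infarct difference of transgenic hearts departed from that of wild-type hearts, by the interaction term of limma, for 9 of the 34 tested genes. It was lower in transgenic hearts by -4.43 for F10, -3.0 for Procr, -2.06 for C5ar1, -2.04 for Plaur, -1.93 for Cfb, -1.87 for C2, -1.60 for Anxa2 and -1.26 for Serpinf1, and higher by 1.88 for C7, with adjusted p between 0.0295 and 0.0492. The 4 groups share the model but TG+MI lay on slide 2 and 8 of the other 9 arrays on slide 1. With slide as a block none of the 9 passed (adjusted p between 0.197 and 0.267), and each kept its sign. Of the 20 other settings that gave a value, the interaction passed in from 3 (Cfb) to 13 (C7). The part of slide in these values was not tested beyond that block. TG, the baseline of transgenic hearts, was also higher than WT on every array in the atrial and adipocyte averages given above. The part of that difference in the 9 interactions was not tested.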

How the results depend on the processing

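In WT+MI against WT, 19 to 22 genes were called when an array was left out. Over the 22 genes in 22 other settings, the calls were repeated in 453 of 484 cases, most losses being of Tfpi and F5. Many of these settings cannot change the fitted difference, only its spread or the adjustment. They are the slide and replicate blocks, slide 1 alone, only the 2 groups compared, no filter, and leaving out a TG or TG+MI array. No called gene changed sign in any setting run, which settings of that kind could not have shown. In TG against WT, 1 gene was called with no filter on dim probes (38 genes and 36981 in all tested), and 0 to 6 with an array left out. In TG+MI against WT+MI, 0 were called with no filter (18 with an unadjusted p under 0.05), with the slide block (5), and with only the 2 groups compared (18), and 0 to 15 with an array left out. TG+MI against TG gave 1 call with the slide block, 0 on slide 2 alone (8) and 6 to 10 with an array left out. The interaction gave 0 with no filter (17) or the slide block (13) and 0 to 13 with an array left out. Over all genes, TG against WT had 518 calls, beside 205 with no filter, 315 with the slide block, 342 with the replicate block and 906 with only those groups. TG+MI against WT+MI had 2403, beside 14, 0, 1878 and 0 under these settings, TG+MI against TG 1745, beside 951, 118, 1208 and 690, and the interaction 1728, beside 55, 3 and 1157 under those that apply. Where a call was lost with fewer arrays the fit had fewer samples; the cause was otherwise not tested. Same-numbered samples did not deviate together (1 of 18 correlations over 0.1, range -0.26 to 0.12). This does not settle whether same-numbered samples were handled together. With the replicate block the calls were 22 for infarction in wild-type and 7 in transgenic hearts, 4 for the transgene without and 9 with infarction, and 8 for the interaction.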
